A study of Mus musculus with 3 samples.

Results

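The Id genes and the core of bone morphogenetic protein (BMP) signalling were examined in follicle-associated epithelium, the epithelial sheet that covers the lymphoid follicles of Peyer's patches in the small intestine. The 10 genes, of 18193 named on the arrays, were Id1, Id2, Id3, Id4, Bmp2, Bmp4, Bmpr1a, Smad1, Smad6 and Smad7. All probe sets annotated with one of these symbols and no other were taken, which gave 22 of the 34945 probe sets that carry a single symbol. The tissue came from 2 RBP-J depleted samples and 1 wild type sample of C57BL/6 mice, all untreated, each measured on 1 Affymetrix array. In the depleted mice a Cre recombinase under the epithelial Villin promoter deletes floxed Rbpj, so cells outside the epithelium keep the gene. Notch receptors control transcription through RBP-J, which binds DNA. The ages of the mice and the number of animals behind each sample are not stated in the sources used here.

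BMP ligands bind paired receptors at the cell surface, which phosphorylate Smad1 and its relatives. These join Smad4 and turn on target genes in the nucleus, among them the Id genes and the inhibitory Smads, Smad6 and Smad7, which hold the pathway in check. Id proteins have a helix-loop-helix domain but no DNA-binding region, so they capture E proteins and keep them from partners such as Atoh1 and Ascl2. In the intestine BMP signalling is known to rise from the crypt to the villus tip, with ligands made largely by the underlying mesenchyme.

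Each value is an intensity in multiples of its array's median over all probe sets. Differences are on the log2(value + 0.248) scale, depleted minus wild type, where 0.248 is the 25th percentile of all values, so the change of dim probe sets is understated. Over the 11885 genes tested the first depleted array had a median difference of 0.0 and the second one of 0.22, a shift against which values of the second are to be read. The genes were chosen by symbol after the log2 differences of this same contrast had been seen, so their differences are described without a test. Whether the 2 depleted samples came from separate animals is not stated, and the spread between them may be technical.

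The depleted and wild type arrays also differed in ways that bear on every comparison. The 3 Rbpj probe sets gave no uniform loss of signal. One read 2.72 and 5.74 in the depleted arrays, against 7.15 in wild type, a second read 4.14 and 4.92 against 5.37, and the last read 2.30 and 4.21 against 3.79. All 3 were lower in the first depleted array, by log2 differences of -0.36 to -1.32, but in the second they were -0.31, -0.12 and 0.14, so the second array showed little loss. The position of each relative to the deletion is not given. Xist, which marks the inactive X chromosome, read 42.8 and 43.4 in the depleted arrays, against 0.297 in wild type, while Y-linked Eif2s3y read 0.122 and 0.056 against 20.6. Genotype and sex-linked expression therefore cannot be told apart. The ratio of 3' to 5' Gapdh control signal, which reflects RNA quality, was 2.28 and 1.54 in the depleted arrays and 1.83 in wild type. All 9 epithelial markers were bright, with Epcam at 129 and 153 in the depleted arrays and 109 in wild type. The 10 fibroblast and smooth muscle markers summed to 3.44 and 7.73 in the depleted arrays and 3.53 in wild type, and at least 1 probe set of each stromal, endothelial and neural list stayed at or under 0.248 in all arrays.

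Id4 stood apart from the other genes. Its brightest probe set read 6.71 and 6.64 in the depleted arrays (mean 6.67 ± 0.0474, SD, n = 2), against 2.11 in wild type. Both depleted arrays lay well above wild type and close to each other: the log2 differences were 1.56 and 1.54, or 2.94-fold and 2.92-fold, and the depleted arrays differed by 0.01 on the log2 scale. Id4 is the Id family member best known from neural and mammary progenitors. In these whole-tissue RNA samples a larger number of Id4-expressing cells and more Id4 RNA per cell cannot be told apart.

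The other Id4 probe sets, annotated to the same transcript record, were dimmer and gave smaller differences. One read 0.941 and 0.780 in the depleted arrays and 0.775 in wild type. The dimmest read 0.743 and 0.292 in the depleted arrays, against 0.248 in wild type, a value equal to the pseudocount. Wild type was the lowest array for all 3 Id4 probe sets, yet the 2 dimmer ones had log2 differences of 0.01 and 0.12 in the second depleted array, under that array's median of 0.22, and 0.22 and 1.0 in the first. The difference of the second Id4 set in the second depleted array turned to -0.14 once the arrays shared one 75th percentile. The mean over the 3 probe sets gave Id4 a log2 difference of 0.74.

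Of 7 goblet cell markers, 6 were above wild type in both depleted arrays, beside 39.0% of all genes tested. None of the 7 passed limma's test at an adjusted p under 0.05. The exception was Muc2, with log2 differences of 0.91 and -0.10. All 9 epithelial markers were also above wild type in both. The median differences were 0.76 and 0.34 for the goblet markers and 0.21 and 0.39 for the epithelial ones, so only the first array set the goblet markers apart. The goblet markers summed to 778 and 652 in the depleted arrays and 485 in wild type. The range over single goblet markers was 5.18 to 174 in the first depleted array, 2.46 to 199 in the second and 2.38 to 135 in wild type. The 5 measured markers of enteric neurons and glia, cells in which Id4 is known, summed to 1.67 and 1.52 in the depleted arrays and 1.23 in wild type. Among these neural markers, the glial S100b was near 0 in both depleted arrays, at 0.016 and 0.026, against 0.213 in wild type, and Sox10 read 0.320 and 0.744 against 0.046. None of the neural markers passed the intensity filter. The part of either cell type in the Id4 difference was not tested.

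The 250 bases before the annotated start of Id4 are shown with those of Id2 and Id3, because Id4 was high in both depleted arrays and the other Id genes were not. Sequences are from RefSeq on GRCm38.p6 and run 5′ to 3′ on the gene's strand. Windows were at hand for 7 of the 10 genes, and those of Id1, Bmp2 and Smad7 were missing. Capitals mark TGGGAA, the core letters of the RBP-J binding motif, and GGCGCC, a GC-rich element known from BMP-responsive promoters, each searched on both strands. The windows lie at chr13:48260866-48261115 on the plus strand for Id4, chr12:25096093-25096342 on the minus strand for Id2 and chr4:136143572-136143821 on the plus strand for Id3.
Id4: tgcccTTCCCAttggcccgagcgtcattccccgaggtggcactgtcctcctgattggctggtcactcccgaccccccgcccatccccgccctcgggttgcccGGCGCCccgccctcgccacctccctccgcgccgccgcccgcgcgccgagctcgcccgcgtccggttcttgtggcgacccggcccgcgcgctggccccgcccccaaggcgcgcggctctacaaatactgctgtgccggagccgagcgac
Id2: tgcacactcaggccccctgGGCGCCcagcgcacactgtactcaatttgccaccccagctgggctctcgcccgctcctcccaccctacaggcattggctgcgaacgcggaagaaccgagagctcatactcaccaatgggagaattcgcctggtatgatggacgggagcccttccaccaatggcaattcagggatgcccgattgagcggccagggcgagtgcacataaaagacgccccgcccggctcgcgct
Id3: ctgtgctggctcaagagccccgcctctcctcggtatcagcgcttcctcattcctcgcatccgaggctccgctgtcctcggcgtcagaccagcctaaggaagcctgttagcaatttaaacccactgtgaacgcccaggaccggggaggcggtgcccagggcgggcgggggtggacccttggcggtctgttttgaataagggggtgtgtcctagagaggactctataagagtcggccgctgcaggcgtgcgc

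The Id4 window held 1 match to TGGGAA, on the opposite strand and starting 245 bases before the start, and 1 match to GGCGCC at 148 bases. The Id2 window held no TGGGAA and 1 GGCGCC, and the Id3 window held neither. Of all 32851 promoter windows of this length, 21.6% held TGGGAA and 9.59% held GGCGCC, and the motifs do not overlap in the Id4 window. The window of Bmpr1a also held 1 match to each, and those of Bmp4, Smad1 and Smad6 held none. A match describes letters and not binding. The Id4 window was the richest in G and C of the 3 shown, at 75.6% against 62.8% for Id2 and for Id3.

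Id1 and Id3, the family members most often used as a readout of BMP signalling, were higher in 1 depleted array only. The single Id1 probe set read 5.81 and 9.75 in the depleted arrays, against 5.85 in wild type. The single Id3 probe set read 9.43 and 14.7 in the depleted arrays, against 10.4 in wild type. For both genes wild type sat close to the first depleted array and below the second, with log2 differences of -0.01 and 0.71 for Id1 and -0.13 and 0.49 for Id3. The gap between the depleted arrays, 0.72 for Id1 and 0.62 for Id3, was larger than the mean difference from wild type, at 0.35 and 0.18. With quantile normalization the differences in the second depleted array were 0.49 and 0.21, and that of Id1 in the first turned from -0.01 to 0.03. The second depleted array also had the highest sum of the fibroblast and smooth muscle markers given above, and of 8 endothelial markers. The latter summed to 2.92 and 4.51 in the depleted arrays and 3.42 in wild type. Only 1 of these 8, Pecam1, passed the intensity filter, at 1.03 and 1.77 in the depleted arrays, against 1.64 in wild type. The sums of 3 further lists were also highest in the second depleted array. All these sums are of values as deposited. The 75th percentile over all probe sets was also highest in the second depleted array, at 4.79, against 4.05 in the first and 4.19 in wild type. The 7 M cell markers summed to 279 and 382 in the depleted arrays and 263 in wild type, and the 9 epithelial markers to 898 and 1042 against 792. The 5 measured T cell markers summed to 11.2 and 19.2 in the depleted arrays and 14.0 in wild type. The range over single T cell markers was 0.756 to 3.12 in the first depleted array, 1.05 to 7.70 in the second and 0.861 to 6.08 in wild type. The part of any of these cells in the Id1 and Id3 values was not tested.

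Id2, an Id protein also known for its role in innate lymphoid cells, did not share the pattern of Id4. Its brightest probe set read 4.87 and 6.63 in the depleted arrays, against 6.76 in wild type, and a second read 2.24 and 3.71 against 3.47. The dimmest read 0.976 and 0.563 in the depleted arrays, against 0.978 in wild type. The first depleted array was the low one for both brighter Id2 probe sets, with log2 differences of -0.46 and -0.58, and the second depleted array was low for the dim one, at -0.60. The 7 measured B cell markers had their lowest sum in the first depleted array, at 17.2 and 39.2 in the depleted arrays and 39.8 in wild type. Singly they did not all follow the sum: 4 of the 7 were below wild type in both depleted arrays and 1 was above it in both. Single B cell markers ranged from 1.04 to 5.85 in the first depleted array, 0.949 to 16.7 in the second and 0.873 to 11.1 in wild type, and their part in the Id2 values was not tested. The mean difference of the 3 Id2 probe sets lay between -0.24 and -0.30, and only for the brightest and the dimmest was wild type above both depleted arrays. The difference of the middle set in the second array turned from 0.09 to -0.05 with quantile normalization.

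**Figure D1:**
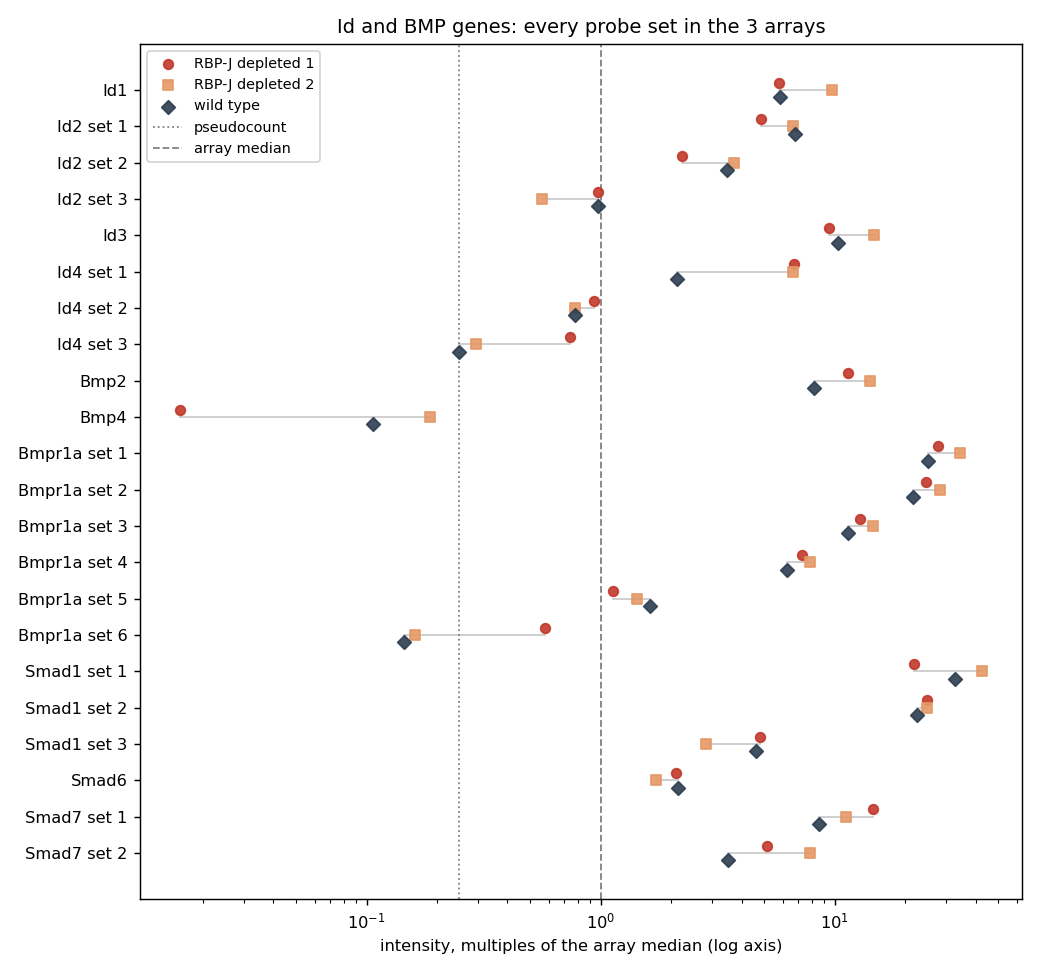
Intensity of each of the 22 probe sets of the 10 genes, on a log axis in multiples of the array median, in RBP-J depleted array 1 (circles), RBP-J depleted array 2 (squares) and wild type (diamonds), with probe sets of a gene ordered by brightness. The first Id4 set shows both depleted arrays near 6.7 and wild type at 2.11, and the Bmp4 set lies under the pseudocount of 0.248 in all arrays.

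Among the ligands, Bmp2 was higher in both depleted arrays. Its probe set read 11.4 and 14.2 in the depleted arrays (mean 12.8 ± 1.96, SD, n = 2), against 8.13 in wild type. The depleted arrays did not overlap wild type, and the log2 differences of 0.48 and 0.79 exceeded the gap of 0.31 between them. Of all genes tested, 39.0% were likewise higher in both depleted arrays. For 37.0% the mean difference from wild type was larger than the gap between the depleted arrays. With quantile normalization they were 0.51 and 0.52. Bmp2 is known as a BMP ligand made by intestinal epithelium as well as by mesenchyme.

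Bmp4, the ligand known chiefly from the mesenchyme under the epithelium, was dim in every array. Its probe set read 0.016 and 0.186 in the depleted arrays and 0.107 in wild type, all under the pseudocount, so no fold is given. The depleted arrays lay on either side of wild type. Of the 10 fibroblast and smooth muscle markers 3 passed the intensity filter. These were Pdgfrb, at 0.596 and 2.54 in the depleted arrays and 0.555 in wild type, Col1a1, at 0.627 and 1.16 against 0.928, and Acta2, at 0.545 and 1.12 against 0.740. All 3 were highest in the second depleted array, which also had the highest Bmp4 value, and their part in it was not tested.

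Bmpr1a, the type I BMP receptor that carries the signal in intestinal epithelium, had 6 probe sets. Its brightest read 27.7 and 34.5 in the depleted arrays and was lower in wild type, with log2 differences of 0.14 and 0.46. The next read 24.6 and 28.1 in the depleted arrays, against 21.7 in wild type. The 4 brightest sets had wild type below both depleted arrays in every case, with log2 differences of 0.14 to 0.20 in the first and 0.31 to 0.46 in the second. In the second array these lie 0.09 to 0.24 above the median of all genes. The differences of these 4 sets in the second array shrank to between 0.05 and 0.12 with quantile normalization. A dimmer set ran the other way, at 1.13 and 1.43 in the depleted arrays and 1.63 in wild type. The dimmest read 0.576 and 0.161 in the depleted arrays and 0.144 in wild type, so that only the first array was above the pseudocount.

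Smad1, the transcription factor activated by BMP receptors, gave no common direction over its 3 probe sets. The brightest read 21.8 and 42.7 in the depleted arrays, against 32.8 in wild type, with log2 differences of -0.58 and 0.38. A second read 24.8 and 24.7 in the depleted arrays, against 22.5 in wild type, and its difference in the second array turned from 0.13 to -0.19 with quantile normalization. The dimmest read 4.80 and 2.81 in the depleted arrays, against 4.61 in wild type. Wild type lay between the depleted arrays in the brightest and the dimmest set, and the depleted arrays were 0.96 and 0.73 apart there.

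The inhibitory Smads differed from each other. Smad7, which blocks receptor signalling of both the BMP and TGF-beta branches, was higher in both depleted arrays in both of its probe sets. The brighter set, whose name ends in x_at and so holds probes that may also match other transcripts, read 14.6 and 11.1 in the depleted arrays, against 8.57 in wild type. The other Smad7 set read 5.12 and 7.81 in the depleted arrays, against 3.49 in wild type. No depleted value overlapped wild type, beside 35.9% of all probe sets with a single symbol that were higher in both depleted arrays. The Smad7 sets ordered the depleted arrays differently. Their log2 differences were 0.75 and 0.37 in the brighter set and 0.52 and 1.11 in the other. With quantile normalization they were 0.77 and 0.11, and 0.58 and 0.92.

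Smad6, the inhibitor more selective for BMP signalling, read 2.11 and 1.73 in the depleted arrays, against 2.13 in wild type. The first depleted array matched wild type to within 0.02 on the log2 scale and the second was lower by 0.27. The Smad6 difference in the first array turned from -0.02 to 0.03 with quantile normalization.

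**Figure D2:**
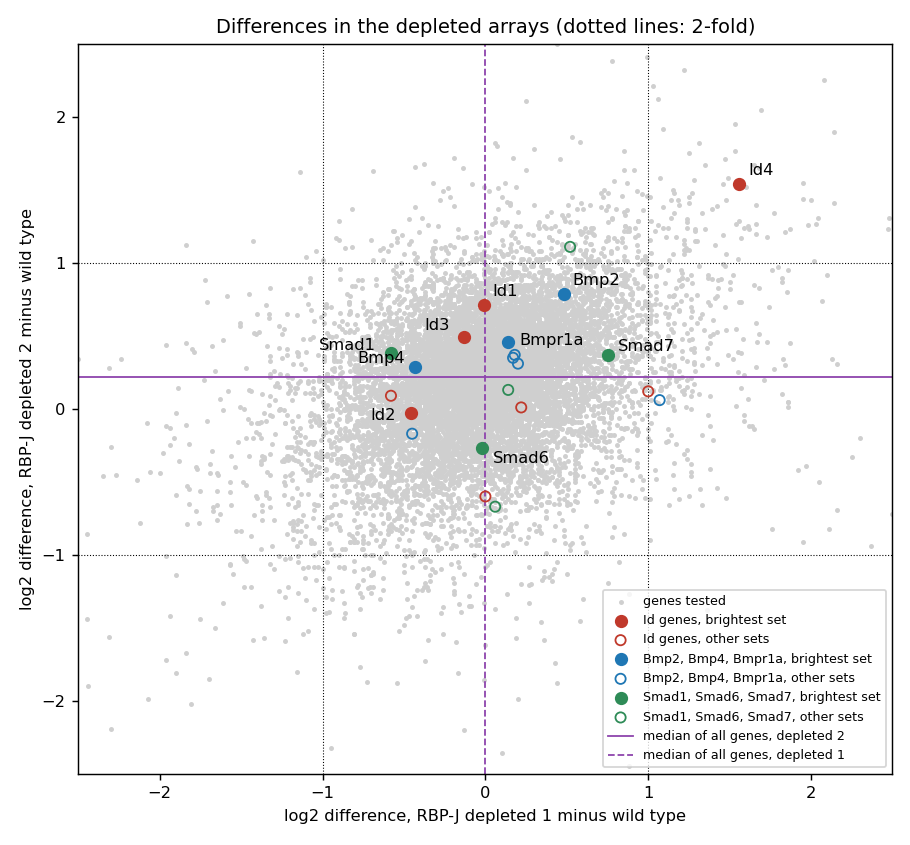
Log2 differences from wild type in RBP-J depleted array 1 (horizontal axis) and array 2 (vertical axis) for genes tested (grey; 20 of 11885 genes lie beyond the range shown) and for the probe sets of the 10 genes, with the brightest set of each gene filled and labelled. Id4, at 1.56 and 1.54, is the only labelled point past the 2-fold lines in both arrays. Of the 11885 genes tested, 100 were at least 2-fold higher in both.

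Over the 22 probe sets, 1 was at least 2-fold higher in both depleted arrays, that of Id4, beside 0.941% of all probe sets with a single symbol, and 0 were at least 2-fold lower in both. Higher in both depleted arrays without a fold limit were 12 of the 22, or 54.5%, beside 35.9% of all such probe sets. Lower in both were 4, or 18.2%, beside 24.6%. Of the 12, 5 are Bmpr1a probe sets and 3 are Id4 probe sets, so they are not independent of each other. The counts moved with the scaling: 12 higher and 3 lower with quantile normalization, beside 31.8% and 30.2% of all probe sets, and 10 and 3 when all arrays were given one 75th percentile, beside 32.5% and 29.8%. The difference from wild type, averaged over the depleted arrays, was larger than the gap between those arrays for 9 of the 22 probe sets, or 40.9%, and for 38.8% of all such probe sets. In all, 19 of the 22 passed the intensity filter, and those of Bmp4 and the dimmest of Id4 and of Bmpr1a did not. Since the genes were chosen with these values known, nothing is read from these shares.

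**Figure D3:**
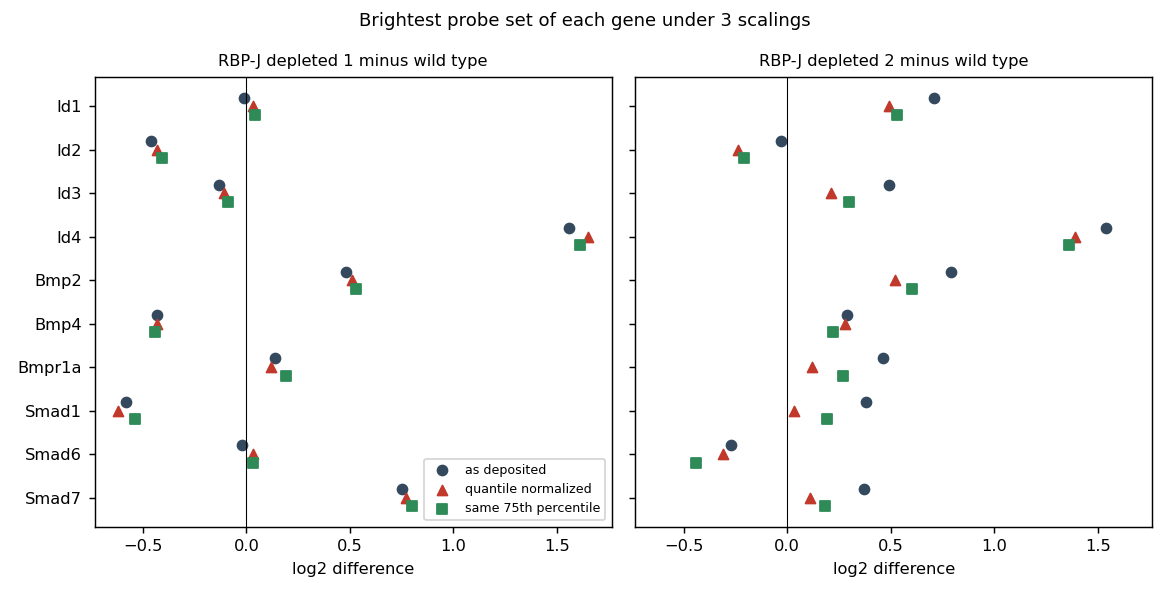
Log2 differences from wild type of the brightest probe set of each gene in RBP-J depleted array 1 (left) and array 2 (right), as deposited (circles), after quantile normalization (triangles) and scaled to one 75th percentile (squares). Id4 stays between 1.36 and 1.65 in both panels, while in the right panel Bmpr1a moves from 0.46 to 0.12 and Smad1 from 0.38 to 0.03 with quantile normalization.

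By the distance between the pair of log2 differences over the 3 arrays, the genes nearest to Id4 were Pced1a, Anxa1 and Slc16a9, at distances of 0.0332, 0.0476 and 0.077. Slc16a9, a monocarboxylate transporter family member, read 10.3 and 11.0 in the depleted arrays, against 3.52 in wild type. Anxa1, a calcium-dependent phospholipid-binding protein, read 0.938 and 0.876 in the depleted arrays, against 0.143 in wild type, a value under the pseudocount. Pced1a read 1.72 and 1.65 in the depleted arrays, against 0.407 in wild type. With 2 differences per gene, likeness here says only that the arrays stood in the same order and distance.

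The other genes of the pathway gave no call. With 1 wild type array the test left large differences uncalled: Acot1, outside these lists, had log2 differences of 2.14 and 1.41 and was not called. The absence of a call therefore does not show that a gene was unchanged. The pathway lists were also chosen with earlier results of these data known, so the counts and shares below are no independent check. Of 87 genes in 8 lists, 80 had a probe set of their own and 46 passed the intensity filter. Of these 46, 0 passed limma's test at an adjusted p under 0.05, beside 0.0841% of all genes tested, and 1 had an unadjusted p under 0.05, beside 2.27% of all genes tested. The count was also 0 by limma without the intensity trend. None was at least 2-fold higher or lower in both depleted arrays, beside 0.841% and 0.488% of all genes tested. Higher than wild type in both arrays were 26 of 46, or 56.5%, beside 39.0% of all genes tested, and lower in both were 5, or 10.9%, beside 19.5%. With quantile normalization these were 22 and 8 of 46, beside 31.0% and 29.4%. The median differences over the 46 were 0.19 and 0.27, beside 0.0 and 0.22 over all genes tested, and 0.14 and 0.08 with quantile normalization, beside 0.0 and 0.02. Of the 28 pathway genes described next, leaving aside Bambi and Atoh1, 23 had several probe sets, and for 6 of these every probe set went one way in both arrays: Acvrl1, Apoa4, Ascl2, Klf4, Smurf1 and Tgfbi. For Acvrl1 the dimmer set lay under the pseudocount in every array, at 0.087 and 0.202 in the depleted arrays and 0.068 in wild type. Values are those of a gene's brightest probe set unless stated. The test takes its spread from the 2 depleted arrays, pooled over genes of like intensity, and assumes that the lone wild type array varies in the same way. This pooled spread carried a weight of 600 degrees of freedom. The SE of a gene therefore hardly reflects the spread of its own 2 depleted values.

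Among the other BMP and GDF ligands, 3 of 4 tested genes were higher in both depleted arrays and 0 passed the test. Bmp8b, a member of the BMP family, read 11.4 and 7.80 in the depleted arrays, against 5.79 in wild type (log2 difference 0.68, SE 0.48, limma adjusted p = 0.9997). The other Bmp8b probe set gave -0.04 and 0.13. Bmp8a read 1.59 and 1.33 in the depleted arrays, against 0.927, and Bmp7 read 1.18 and 1.23 against 0.847, with 1 of its 3 probe sets at -0.25 in the second array. Bmp6, a ligand known for its control of hepcidin in liver, went the other way, at 1.75 and 3.10 in the depleted arrays, against 3.63 in wild type. The ligand list as a whole had median differences of 0.52 and 0.42.

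Of 6 tested receptors and co-receptors, 5 were higher in both depleted arrays and 0 passed the test. Acvr1, another type I BMP receptor, read 9.16 and 7.71 in the depleted arrays, against 5.31 in wild type, but its other 2 probe sets gave log2 differences of -0.26 and -0.05 in the second array. Acvr2a, a type II receptor shared with activin, read 15.8 and 16.7 in the depleted arrays, against 12.9 in wild type, and its other probe set gave -0.20 and 0.16. The co-receptor Rgmb read 5.98 and 8.76 in the depleted arrays, against 4.76 in wild type, in its brightest probe set, but only 2 of its 6 probe sets were higher in both arrays. Acvrl1, a type I receptor known from endothelium, read 0.451 and 1.51 in the depleted arrays, against 0.235 in wild type, and so rests on the second array. The part of endothelial cells in the Acvrl1 values was not tested. That list had medians of 0.30 and 0.44, and of 0.32 and 0.19 with quantile normalization.

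Of 5 tested antagonists, 4 were higher in both depleted arrays, with medians of 0.34 and 0.26, and 0 passed the test. With quantile normalization 3 were higher, with medians of 0.39 and 0.09, and with one 75th percentile 3 were higher and 1 lower, with medians of 0.38 and 0.07. Dand5, a secreted antagonist of the DAN family, read 1.94 and 1.47 in the depleted arrays, against 0.967 in wild type, and Nbl1, of the same family, read 4.46 and 4.67 against 3.49. Twsg1 and Fstl1 had log2 differences of 0.04 and 0.26 and of 0.43 and 0.09 in their brightest probe sets. None of the other 3 Twsg1 sets was higher in both arrays, and 1 was lower in both, at -0.85 and -0.69. The other Fstl1 set was lower in both, at -0.27 and -0.15. The difference of Fstl1 in the second array turned to -0.04 once the arrays shared one 75th percentile. Bambi, a decoy receptor and itself a BMP target, was not among these 4, at 0.754 and 1.03 in the depleted arrays, against 0.966 in wild type.

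Of the 10 tested Smads and regulators, 5 were higher in both depleted arrays, 0 were lower in both and 0 passed the test, with medians of 0.05 and 0.19. With quantile normalization 3 were higher and 3 lower, with medians of 0.05 and -0.09. Smurf1, a ubiquitin ligase that targets BMP Smads, read 3.62 and 4.97 in the depleted arrays, against 2.66 in wild type, and its second probe set gave log2 differences of 0.70 and 0.79. Skil, a repressor of Smad-driven transcription, read 34.6 and 38.5 in the depleted arrays, against 26.6, although another Skil probe set gave -0.34 and 0.47. Smad3, of the TGF-beta branch, read 7.68 and 5.42 against 4.52, while its other probe sets gave -0.46 and -0.32, and -0.23 and 0.56. The phosphatase Ppm1a had differences of 0.10 and 0.16, of which the second turned to -0.16 with quantile normalization, and 4 of its 8 probe sets were higher in both arrays.

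Of the TGF-beta and activin branch, 3 of 6 tested genes were higher in both depleted arrays and 0 passed the test, with medians of 0.10 and 0.55, and of 0.12 and 0.30 with quantile normalization. Acvr1b, a type I activin receptor, read 18.9 and 18.2 in the depleted arrays, against 11.1 in wild type, while its dimmer probe set gave 0.0 and -0.44. Tgfbi, induced by TGF-beta, read 21.6 and 25.5 in the depleted arrays, against 19.5, and all 4 of its probe sets were higher in both. The receptor Tgfbr2 read 10.6 and 14.4 against 9.88, and its other 2 probe sets were not higher in both arrays.

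Only 1 of the 8 other BMP target genes listed passed the intensity filter, namely Hamp, which encodes hepcidin. It read 30.1 and 42.0 in the depleted arrays, against 42.7 in wild type, with log2 differences of -0.50 and -0.02. The first depleted array was lower under each scaling tried. The second lay close to wild type as deposited, but its difference was -0.39 with quantile normalization and -0.21 with one 75th percentile. The other Hamp probe set gave -0.67 and 0.08.

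The E proteins and their bHLH partners, through which Id proteins act, had medians of 0.01 and -0.48 over 8 tested genes, with 2 higher and 3 lower in both depleted arrays, and 0 passed the test. Ascl2, a bHLH factor of intestinal stem cells, read 2.70 and 3.50 in the depleted arrays, against 6.42 in wild type (log2 difference -1.0, SE 0.50, limma adjusted p = 0.9997), and did not pass the test. All 3 Ascl2 probe sets were lower in both, with log2 differences of -0.78 to -1.18 in the first and -0.11 to -0.83 in the second. The E protein gene Tcf3 read 8.63 and 9.15 in the depleted arrays, against 14.3 in wild type, but its 2 dimmer probe sets gave 0.30 and 0.73 in the second array. Tcf4 read 3.13 and 3.71 in the depleted arrays, against 5.46 in wild type, in its brightest probe set, but of its 6 probe sets 2 were lower and 3 higher in both arrays. The brightest Tcf12 set was higher, at 11.7 and 14.2 in the depleted arrays, against 9.50 in wild type, while another read 8.52 and 11.1 against 11.3, and 1 of the 5 Tcf12 sets was higher in both arrays. Atoh1, the factor that directs progenitors to secretory fates, read 5.09 and 1.89 in the depleted arrays, on either side of the 3.73 in wild type.

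Villus tip genes, known to depend on high BMP signalling in enterocytes, were higher in both depleted arrays for 4 of 6 tested genes, with medians of 0.25 and 0.38, and 0 passed the test. With quantile normalization 3 were higher, with medians of 0.16 and 0.13. Nt5e, an ecto-nucleotidase of the villus tip, read 4.21 and 4.90 in the depleted arrays, against 2.41 in wild type (log2 difference 0.85, SE 0.50, limma adjusted p = 0.9997), while its dimmest probe set gave -1.02 and 0.52. The transcription factor Klf4 read 32.9 and 34.9 in the depleted arrays, against 24.5, and the apolipoprotein gene Apoa4 read 126 and 163 against 105. Creb3l3 had log2 differences of 0.23 and 0.10, of which the second turned to -0.25 with quantile normalization. The 9 epithelial markers were also all higher in both depleted arrays, with medians of 0.21 and 0.39, so the villus tip medians lay close to those of the epithelium at large, and the part of epithelial content was not tested.

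**Figure D4:**
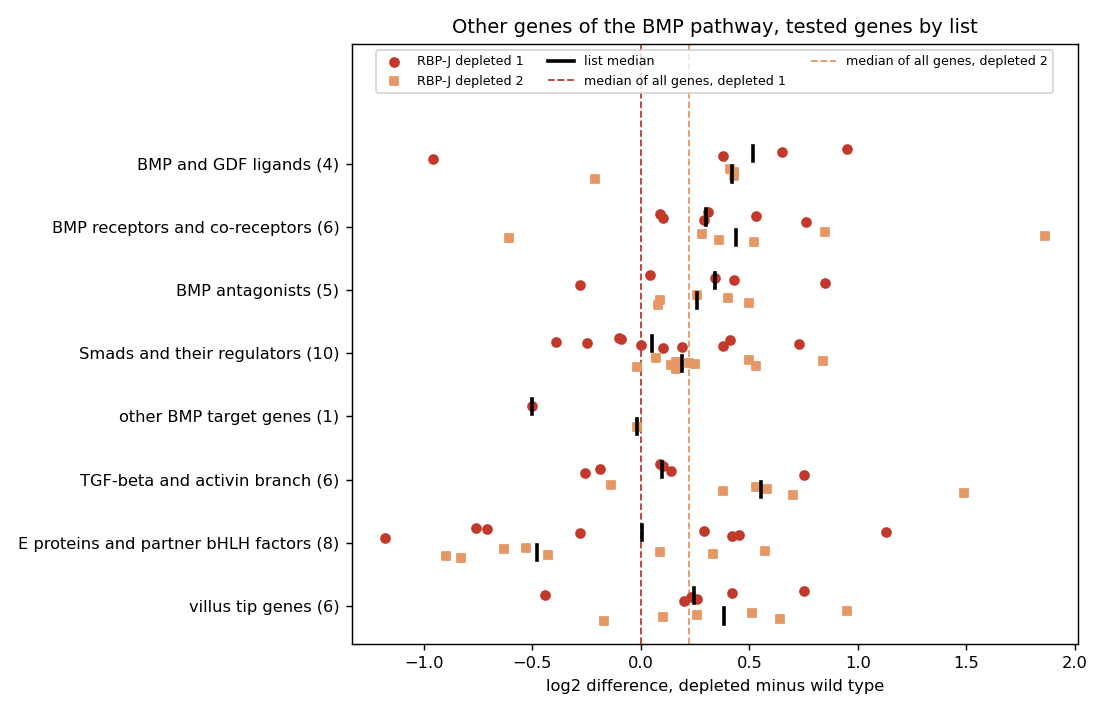
Log2 differences from wild type of the tested genes of 8 pathway lists in RBP-J depleted array 1 (circles) and array 2 (squares), with the number of genes in brackets, list medians as black bars and the medians of all genes tested as dashed lines. The E protein and partner list is spread from -1.18 to 1.13 in the first array, and its median of -0.48 in the second array lies under the all-gene median of 0.22.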

How the data were processed

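The authors deposited 1 linear intensity for each probe set on each array. They used MAS5, per the submitters' processing notes. Each array has a median of 1. No detection calls or scanner files were used, and depth does not apply to arrays: their number limits the precision. Names came from the platform annotation. Affymetrix controls and probe sets with several symbols or none were left out. A gene was represented by its probe set of highest mean and tested if that mean reached 0.598, the 40th percentile of all probe set means. Depleted (n = 2) and wild type (n = 1) arrays were compared on log2(value + 0.248) in R 4.3.3 with limma 3.58.1 (lmFit, eBayes with intensity trend), with Benjamini-Hochberg adjustment over 11885 genes. The script was tested on simulated data. Alternatives were pseudocounts of 1 and 5, quantile normalization, the same 75th percentile per array, other filters, other handling of probe sets, eBayes without trend and leaving out either depleted array. The members and lists were chosen with earlier results of these data known. Named pathway genes are, per list, up to 4 genes that went one way in both depleted arrays, ranked by the smaller of their 2 differences. Rbpj and the 3 genes nearest in pattern to a member 2-fold off in both arrays were also named. Bambi, Atoh1 and the markers shown by name were picked after their values were seen. Not all list genes had a probe set of their own symbol, and those without one were not analysed here.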

Additional observations from a re-analysis of the deposited data

How the results depend on the processing

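Averaged over its probe sets, Id4 had log2 differences of 0.92 and 0.56. The log2 difference of its brightest probe set stayed above 1 in both depleted arrays under every scaling tried and with a pseudocount of 1. It was 0.72 and 0.71 with a pseudocount of 5, where 0 of the 22 probe sets were 2-fold off in both arrays, against 1 otherwise. Judged on a single depleted array, 2 were, whichever array was left out. The mean difference of the brightest probe set kept its sign for all 10 genes under both scalings, both pseudocounts and averaging over probe sets. It changed sign for Bmp4 and Smad1 without the first depleted array, and for Id1 and Id3 without the second. Over all genes, limma called 10, among them the sex-linked Xist, Eif2s3y, Kdm5d and Uty. It called 3 under quantile normalization, 4 when arrays shared one 75th percentile, 1 with no filter on dim genes, 6 with a 60th percentile filter and 21 when every probe set was tested. The causes were not tested. The pathway count was 0 under each of these. Genes at least 2-fold off in both depleted arrays numbered 158, and 38 with a pseudocount of 1, 7 with 5, 286 with no filter, 66 with the 60th percentile filter and 81 after averaging over probe sets. On a single depleted array they numbered 619 to 763. Scaling moved the split of genes higher and lower in both arrays from 4636 and 2314 to 3680 and 3495 with quantile normalization. With either depleted array left out no residual degrees of freedom remain, so no test was made. No paired analysis was possible because the labels number only the depleted samples. Dim probe sets, such as that of Bmp4, limit what the arrays can show.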
